A study of Mus musculus with 44 samples.

Results

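Vehicle-treated liver was compared with vehicle-treated spleen on 9 of the 44 arrays of a study of 2-butoxyethanol in B6C3F1 mice, a hybrid laboratory strain. The arrays were chosen by their labels alone, as all 4 liver and all 5 spleen arrays of the vehicle arm taken at 7 days. These animals received vehicle and no 2-butoxyethanol. All were killed by cervical dislocation under ketamine and acepromazine, and RNA came from a piece of the left lateral liver lobe or from part of a spleen cross-section, so each sample is whole tissue with all its cell types. Sex, age, dose, route and the identity of the vehicle are not given in the labels, which also do not say which liver and spleen came from the same mouse, or that replicates are separate animals. The p-values therefore measure the spread between these samples, which may in part be technical. The comparison asks which genes set the resting profile of each organ apart.

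The liver is built mostly of hepatocytes, which make the proteins of blood plasma, clear ammonia as urea, make bile acids and glucose, and oxidise drugs and fats. Its sinusoids are lined by a specialised endothelium and hold resident macrophages called Kupffer cells. The spleen filters blood: its white pulp holds B cell follicles and T cell zones, and its red pulp holds macrophages that recycle iron from old red cells and, in mice, a standing pool of dividing blood precursors.

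Levels are given as log2 of normalised probe-set intensity plus 1, after the 9 arrays had been set to a common distribution, and a difference is liver minus spleen on that scale. A level is comparable across arrays for 1 gene, not between genes. The deposited intensities had array medians of 50.8 to 51.2 in liver and 109 to 111 in spleen, so the organs appear to have been scaled apart, and organ and scaling set cannot be told apart for small differences. Between arrays of the same organ the correlation over genes was 0.996 to 0.997 in liver and 0.992 to 0.997 in spleen, against 0.678 to 0.690 between organs, as a description over genes that share a platform. No array went against its label. Albumin (Alb) was at 15.20 on each liver array and at 5.28, 5.43, 6.07, 5.09 and 5.32 on spleen replicates 1 to 5. The pan-leukocyte phosphatase Ptprc (CD45) was at 7.61, 7.41, 7.72 and 7.56 in liver and at 13.82, 13.74, 13.76, 13.73 and 13.77 in spleen. Some arrays did stand apart in a few gene groups: liver replicate 1 in acute phase genes, spleen replicates 2, 4 and 5 in fat-cell genes, and spleen replicate 1 in erythroid and proliferation genes. Their values stand beside the results they touch.

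Of 18193 genes, 1382 (7.6%) were at least 4-fold higher in liver and 1404 (7.72%) at least 4-fold higher in spleen at an adjusted p under 0.05 (limma, Benjamini-Hochberg adjustment over all genes). Genes that pass both limits are said below to have passed. The adjusted p alone was met by 8982 genes higher in liver (49.4%) and 6667 higher in spleen (36.6%), so most genes differed measurably and the size of the difference carries the information. The median gene was 0.143 higher in liver, with quartiles of -0.596 and 0.758. The split of passing genes follows the scaling: the values as deposited gave 982 higher in liver and 2702 higher in spleen, and centring each array on its median gave 1807 and 1126. Ranks within an array showed the asymmetry at the top of the range. Of the 901 genes above the 95th percentile in liver, 253 were below the median in spleen. Of the 901 above the 95th percentile in spleen, 91 were below the median in liver, and 312 genes were above the 95th percentile in both organs.

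**Figure D1:**
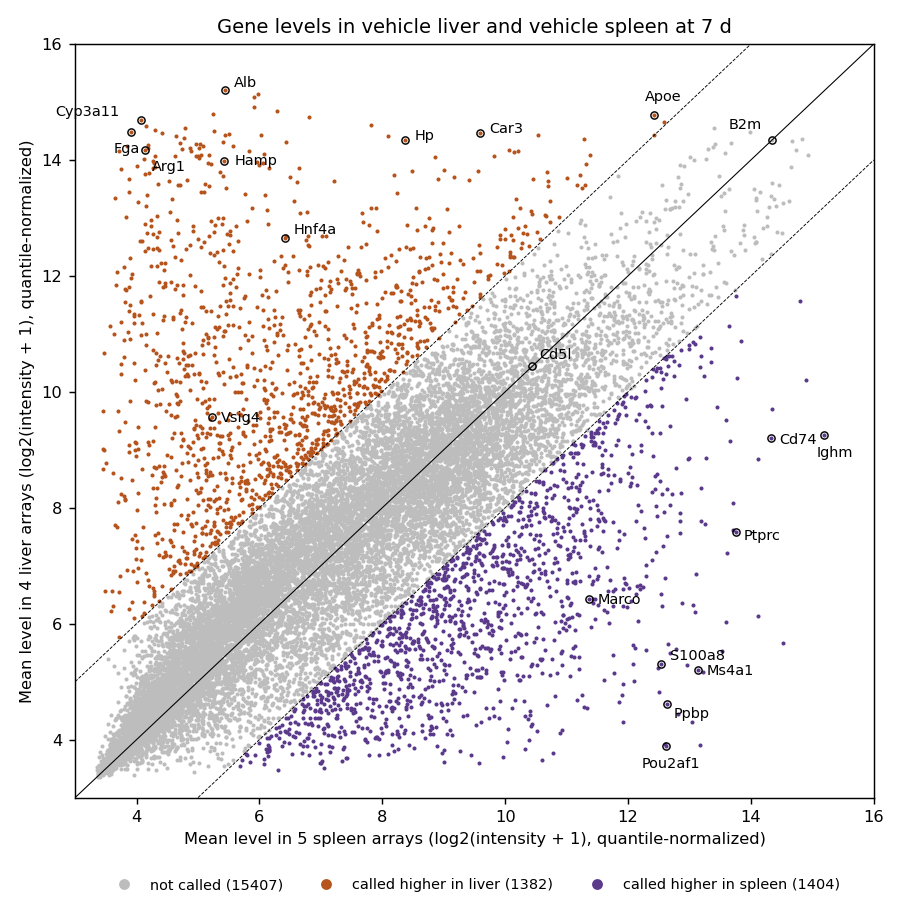
Mean level of each gene in spleen (x axis) against liver (y axis), log2(intensity + 1) after joint quantile normalisation, with genes that passed the test in colour and dashed lines at the 4-fold limits. The 1382 liver genes and 1404 spleen genes lie off the diagonal on opposite sides, and Apoe, B2m and Cd5l are labelled among genes expressed in both organs.

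Secreted plasma proteins were liver-sided without exception. All 23 measured carrier and secreted proteins passed in liver, with a median difference of 7.92. In whole tissue, fewer cells of a type and less RNA per cell cannot be told apart, here and in every result that follows. Albumin, the main carrier of plasma, was the highest of all genes tested on each of the 4 liver arrays, at 15.20. That is near the top of the common distribution but not at it, since the immunoglobulin gene Ighm reached 15.31 in spleen replicate 1. The identical albumin level on the 4 livers follows from its equal rank there, and its difference was 9.76 ± 0.15 (SE, limma adjusted p = 8.07e-15). The α2-macroglobulin family protease inhibitor Pzp was higher by 10.21 ± 0.05, the haem carrier hemopexin (Hpx) by 9.59 ± 0.06, and the haemoglobin carrier haptoglobin (Hp) by 5.97 ± 0.20. Haptoglobin was at 7.88 to 9.01 in spleen, and its higher levels there were on the arrays with high fat-cell genes. Hemopexin stayed at 4.59 to 4.79 in spleen. With only the spleen arrays low in fat-cell genes, a split chosen after seeing the data, the differences were 6.63 for haptoglobin and 9.73 for hemopexin. Among apolipoproteins, 16 of 18 passed in liver and none in spleen. Apoc3, an inhibitor of triglyceride clearance, was higher by 10.42 ± 0.07, and Apoa1, the core protein of high-density lipoprotein, by 9.18 ± 0.12. Apoe, which macrophages also make, was high in both organs, with spleen at the 98.5 percentile of its own genes, and differed by only 2.35 ± 0.04.

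Fibrinogen had the clearest organ contrast among clotting proteins. Its alpha chain Fga was at 14.45, 14.48, 14.48 and 14.54 in liver and at 3.83, 3.91, 4.09, 3.85 and 3.89 in spleen. The organs were separated by 10.57 ± 0.06 (adjusted p = 2.68e-18), and the beta and gamma chains Fgb and Fgg by 9.77 ± 0.05 and 9.76 ± 0.06. Of 28 coagulation and fibrinolysis genes 21 passed in liver. The 3 that passed in spleen are products of vessel lining, platelets or macrophages: thrombomodulin (Thbd, -3.46 ± 0.10), the transglutaminase F13a1 (-2.99 ± 0.10) and von Willebrand factor (Vwf, -2.29 ± 0.10).

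Complement was divided between the organs. Of 25 measured genes 14 passed in liver and 6 in spleen. The components of the membrane pore were on the liver side: C8a was higher by 9.25 ± 0.08, C9 by 8.32 ± 0.09 and C5, under its symbol Hc, by 8.74 ± 0.05. Mbl2, the lectin that starts complement on sugars, was higher by 8.63 ± 0.10. The spleen side held complement receptor 2 (Cr2, -6.77 ± 0.08), carried by B cells and follicular dendritic cells, the shield protein Cd55 (-3.93 ± 0.08), properdin (Cfp, -2.60 ± 0.08, with another probe set at -0.77) and the C1q chains C1qa (-2.93 ± 0.07), C1qb (-2.12 ± 0.08) and C1qc (-2.32 ± 0.07), which macrophages secrete.

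Because these genes pass together in whole-organ RNA, their upstream sequence was searched for short motifs that liver and blood-cell regulators are known to bind. The 250 bases before the gene start were read on both strands for the 14452 of 18193 genes that had a RefSeq promoter (GRCm38.p6). The letters GTTAATNAT, an HNF1-type motif, were found in 32 of 1092 promoters of genes that passed in liver (2.93%), 3 of 1100 of genes that passed in spleen (0.273%) and 86 of all 14452 (0.595%). The letters AAAGTCCA, a DR1-type motif of the HNF4A and PPAR kind, were found in 2.66%, 1.0% and 1.02%. C/EBP-type TTGCNNAA was common everywhere, in 131 of 1092 liver, 111 of 1100 spleen and 1166 of all promoters. The first listed start of each gene was used, and for the windows printed, genes of 1 chromosome were left out. Shown here are 6 windows of 100 bases that end at the base before the gene start. They were chosen, for each motif, by the largest difference among liver genes open to the naming rule below that hold it there. They are, 5′ to 3′ on the strand of the gene, Fga at chr3:83026053-83026152 (+), Alb at chr5:90460770-90460869 (+), Hc at chr2:35061413-35061512 (-), Slco1b2 at chr6:141629418-141629517 (+), Mup3 at chr4:62087318-62087417 (-) and Abcb11 at chr2:69342617-69342716 (-). Capitals mark the motif, which overlapped no other motif searched, and a match is a description of letters, with no test and no evidence of binding.
Fga: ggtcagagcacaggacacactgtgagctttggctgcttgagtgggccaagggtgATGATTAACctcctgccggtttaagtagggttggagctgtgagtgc
Alb: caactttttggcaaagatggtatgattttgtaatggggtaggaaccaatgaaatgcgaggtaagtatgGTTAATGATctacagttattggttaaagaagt
Hc: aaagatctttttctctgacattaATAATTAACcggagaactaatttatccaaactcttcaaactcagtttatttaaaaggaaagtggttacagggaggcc
Slco1b2: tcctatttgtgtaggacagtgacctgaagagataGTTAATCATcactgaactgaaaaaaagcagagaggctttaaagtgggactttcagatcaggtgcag
Mup3: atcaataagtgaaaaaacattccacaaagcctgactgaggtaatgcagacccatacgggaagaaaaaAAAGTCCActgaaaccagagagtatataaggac
Abcb11: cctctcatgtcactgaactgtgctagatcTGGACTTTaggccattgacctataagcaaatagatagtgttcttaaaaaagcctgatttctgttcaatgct
The first 4 hold the HNF1-type letters, 46, 32, 77 and 66 bases before the start, and the last pair the DR1-type letters, 33 and 71 bases before it.

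Acute phase genes and iron hormones passed in liver for 16 of 22 members, and several of them varied among the livers of the same arm. Serum amyloid A1 (Saa1) was at 14.48 in liver replicate 1 and at 10.12, 9.94 and 10.61 in replicates 2 to 4, against 4.51 to 4.77 in spleen. Every liver array was above every spleen array, and 1 liver array was far above the others. The difference was 6.69 ± 0.73 (adjusted p = 2e-06), and 5.60 without liver replicate 1. Saa2 moved the same way (5.69 ± 0.91, and 4.36 without that array), as did the carrier Orm2 (4.97 ± 0.54, and 4.23 without it). The siderophore-binding protein Lcn2 reached 10.71 in liver replicate 1 and 6.52 to 7.33 in the other livers, so that the organs overlapped (difference -0.69 ± 0.67, adjusted p = 0.346, and -1.61 without that array). The mean level over the 22 genes was 11.50 in liver replicate 1 and 10.52 to 10.55 in the others. C-reactive protein (Crp), weakly inducible in mice, differed little among livers, at 12.56 to 12.64.

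Drug-oxidising enzymes were strongly liver-sided. Of 34 cytochrome P450 genes 28 passed in liver, with a median difference of 6.90. Cyp3a11, a broad-specificity drug oxidase, was at 14.68, 14.71, 14.71 and 14.65 in liver and 4.01, 3.88, 4.52, 4.02 and 3.96 in spleen. That is a difference of 10.61 ± 0.11 (adjusted p = 1.77e-16). Cyp3a25 followed at 10.44 ± 0.05 and Cyp2f2, a periportal form, at 9.77 ± 0.06. The alcohol- and solvent-oxidising Cyp2e1 was uniform in liver, at 14.57 to 14.68, but stood at 5.65, 10.10, 5.92, 8.88 and 8.54 in spleen. The spleens with a high Cyp2e1 level, replicates 2, 4 and 5, are those with high fat-cell genes. With spleen replicates 1 and 3 only, a split chosen after seeing the data, the Cyp2e1 difference was 9.09 in place of 6.79 ± 0.76. Without spleen replicate 2 it was 7.42. The P450 genes that passed in spleen were Cyp1b1 (-4.52 ± 0.08), known from stromal cells, and Cyp4f18 (-4.51 ± 0.08), a leukotriene B4 oxidase of leukocytes. Other probe sets of Cyp1b1 gave -4.76 and 0.70, and the only other probe set of Cyp4f18 gave 0.46. Cyp4a14, a fatty acid hydroxylase under PPARA control, was at 6.49 in liver replicate 4 and 9.41 to 9.98 in the others, and its difference of 4.91 ± 0.55 became 5.71 without that array.

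Conjugation and bile acid genes were also liver-sided. Conjugation enzymes passed in liver for 29 of 31 genes, led by the glucuronosyltransferase Ugt2b5 (10.10 ± 0.07) and the sulfotransferase Sult2a8 (9.79 ± 0.09). For bile acid synthesis and transport 26 of 28 passed. The sinusoidal uptake carriers Slc10a1 and Slco1b2 were higher by 9.11 ± 0.07 and 8.74 ± 0.07, and the canalicular export pumps Abcb11 and Abcc2 by 7.11 ± 0.06 and 6.74 ± 0.06. The bile acid sensor Nr1h4 (FXR) was higher by 5.61 ± 0.08. Cyp7b1, which makes oxysterols and bile acids, ranged over livers from 11.96 to 13.73 and was 7.16 ± 0.30 higher than in spleen, with other probe sets at 0.57 to 6.43.

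Nitrogen metabolism passed in liver for 33 of 36 genes, with a median difference of 5.74 and none in spleen. Arginase 1 (Arg1), the last step of the urea cycle, was at 14.18, 14.12, 14.17 and 14.24 in liver and 4.05 to 4.26 in spleen, a difference of 10.05 ± 0.06. Its mitochondrial paralog Arg2 was low in both organs (0.04 ± 0.08). Cps1 and Otc, the entry enzymes of the cycle, were higher by 9.19 ± 0.06 and 9.69 ± 0.06. Tryptophan 2,3-dioxygenase (Tdo2) was higher by 10.40 ± 0.05 and the methionine enzymes Mat1a and Bhmt by 9.25 ± 0.11 and 9.23 ± 0.08. Glutamine synthetase (Glul), which in liver is confined to a rim of pericentral hepatocytes, differed by only 0.35 ± 0.06 on the probe set chosen and by 2.29 on the other.

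Glucose and fat metabolism passed in liver with isolated exceptions in spleen. For gluconeogenesis, glycogen and fructose 17 of 19 passed in liver, including Fbp1 (9.45 ± 0.05) and G6pc (6.81 ± 0.13), which release glucose. The cytosolic Pck1 was higher by 8.34 ± 0.57, by 8.95 without spleen replicate 2 and by 9.64 with spleen replicates 1 and 3 only, with other probe sets at 0.48 to 7.12, while its mitochondrial paralog Pck2 was the 1 gene of the list that passed in spleen (-2.09 ± 0.08). Fatty acid oxidation and ketogenesis passed for 20 of 31 in liver, and peroxisomal genes for 25 of 37. Acaa1b, a peroxisomal thiolase, was higher by 9.66 ± 0.07, and Fabp1, the liver fatty acid carrier, by 9.55 ± 0.08. Ketone bodies are made in liver and used elsewhere, and the enzymes differed in that direction: Bdh1 was 5.12 ± 0.06 higher in liver and Oxct1, needed to burn ketones, differed by -2.71 ± 0.06, higher in spleen. Cholesterol and lipid synthesis passed for 28 of 35 genes in liver, and the desaturase Scd2 was the exception (-3.95 ± 0.06).

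The factors that regulate hepatocyte genes were also higher in liver. Of 31 liver transcription factors 24 passed in liver and none in spleen, with a median difference of 2.98. Hnf4a, the nuclear receptor that maintains hepatocyte identity, was at 12.59, 12.59, 12.74 and 12.70 in liver and 6.26 to 6.69 in spleen (6.24 ± 0.08, other probe sets 3.36 to 7.75). The glucose-sensing factor Mlxipl was higher by 6.39 ± 0.07, Ppara by 6.10 ± 0.07 and Foxa3 by 5.87 ± 0.08. Male-biased liver genes passed in liver for 12 of 12, among them the major urinary protein Mup3 (10.05 ± 0.07) and Cyp4a12a (8.75 ± 0.10). Of 9 female-biased genes 1 passed in liver (11.1%, against 7.6% of all genes), Cyp17a1 (2.68 ± 0.19). Xist, the transcript of the inactive X, was low in both organs, at 5.79 to 6.46 and 5.59 to 5.88, and the Y-linked Eif2s3y averaged 10.02 in liver and 9.99 in spleen. The glucuronosyltransferase Ugt2b38, listed as male-biased, was at 6.004 in liver replicate 1 and 8.15 to 9.78 in the others, and its difference of 4.22 ± 0.56 became 4.99 without that array.

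**Figure D2:**
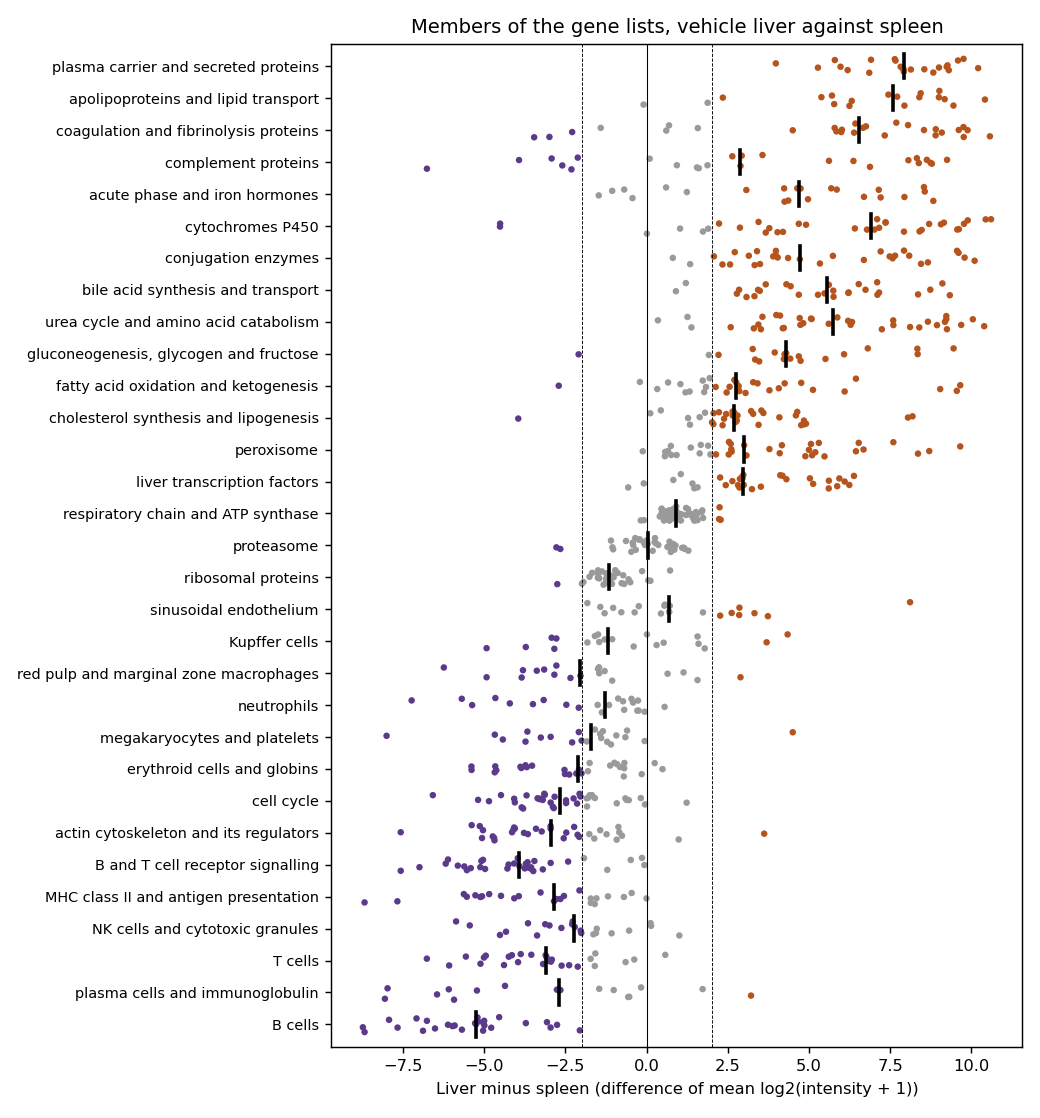
Liver minus spleen difference (x axis, log2) for the genes of each list (rows), with a point for each gene (coloured where it passed) and a bar at the list's median. The dashed lines at 2 and -2 are the 4-fold limits. Hepatocyte lists lie to the right, blood-cell lists to the left, and the medians of the respiratory chain, proteasome and ribosomal lists lie between the dashed lines.

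B cell genes were spleen-sided without exception. All 27 measured B cell genes passed in spleen and none in liver, against 7.72% of all genes, with a median difference of -5.25. Pou2af1, the octamer-site coactivator that B cells need for germinal centres, was at 4.11, 3.70, 3.87 and 3.86 in liver and at 12.62, 12.68, 12.62, 12.50 and 12.71 in spleen. The difference was -8.74 ± 0.08 (adjusted p = 5.07e-17), and the organs were far apart on every array. The surface protein Ms4a1 (CD20) differed by -7.93 ± 0.08, the class II modulator H2-Ob by -8.69 ± 0.08, and the receptor signalling chains Cd79a and Cd79b by -6.89 ± 0.05 and -6.52 ± 0.08. Immunoglobulin transcripts were among the largest spleen differences, such as the kappa segment Igkv9-120 (-9.26 ± 0.06, though other probe sets gave -2.81 to -0.43); probes of this gene family can cross-hybridise. Of 16 plasma cell and immunoglobulin genes 9 passed in spleen. The joining chain Jchain differed by -7.98 ± 0.08. The IgG3 constant region Ighg3 varied among spleens, from 10.99 to 13.74, and its other probe sets differed by -3.24 to -0.77. Sdc1 (CD138), a plasma cell surface marker that hepatocytes also carry, was the gene of this list that passed in liver (3.22 ± 0.12).

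T cell genes passed in spleen for 21 of 27 members. Cd3e, a chain of the T cell receptor complex, was at 7.24, 7.31, 7.43 and 7.26 in liver and 10.38, 10.46, 10.08, 10.20 and 10.19 in spleen (-2.95 ± 0.08). Its partner Cd3g differed more, by -5.57 ± 0.09, and the chromatin organiser Satb1 by -6.77 ± 0.09. Natural killer and cytotoxic genes passed for 14 of 22, led by the receptor Klrd1 (-5.87 ± 0.10) and the chemokine Ccl5 (-5.45 ± 0.12). For all of these the liver arrays lay below the spleen arrays without overlap.

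Genes of antigen receptor signalling and of the leukocyte cytoskeleton were higher in spleen. Of 33 signalling genes 28 passed in spleen, and of 33 actin regulators 23. Coro1a, an actin-binding protein of leukocytes, was at 5.97 to 6.08 in liver and 13.57 to 13.67 in spleen (-7.57 ± 0.05). Ptprc differed by -6.19 ± 0.06. Iqgap2, a scaffold abundant in hepatocytes, was the actin gene that passed in liver (3.62 ± 0.05), while its paralog Iqgap1 passed in spleen (-5.07 ± 0.10, other probe sets -5.60 to -0.24). Class II antigen presentation passed for 17 of 25 genes in spleen. The invariant chain Cd74 was at 9.73, 8.88, 9.20 and 8.98 in liver and 14.23 to 14.46 in spleen (-5.12 ± 0.14). The class I light chain B2m, in contrast, overlapped at 14.32 to 14.37 in liver and 14.28 to 14.43 in spleen (adjusted p = 0.934), and the induced proteasome subunits Psmb8 and Psmb9 passed in spleen (-2.78 ± 0.07 and -2.66 ± 0.08).

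Blood cell transcription factors passed in spleen for 28 of 39 members and in liver for none. Spib, Irf8 and Ikzf1, which direct lymphoid and myeloid fates, differed by -7.09 ± 0.08, -5.62 ± 0.06 and -5.29 ± 0.08, the last with another probe set at -0.77. The letters GAGGAAGT, an ETS-type motif of the kind bound by Spi1 and Spib, were found in 49 of 1100 spleen promoters (4.45%), 14 of 1092 liver promoters (1.28%) and 2.32% of all. The octamer ATTTGCAT, the site class at which Pou2af1 acts, was found in 2.09%, 1.37% and 1.38%. The GATA-type AGATAAG was found in 2.45%, 3.57% and 2.15%, and the E2F-type TTTCCCGC in 1.36%, 0.641% and 1.41%. The windows of 5 spleen genes are shown, chosen in the same way as the liver windows, for the ETS-type and octamer letters. They are Pf4 at chr5:90772335-90772434 (+), Pycard at chr7:127993868-127993967 (-), Tlr1 at chr5:64933559-64933658 (-), Prkcb at chr7:122289025-122289124 (+) and Ccr6 at chr17:8235943-8236042 (+). Each is given 5′ to 3′ on the strand of the gene, with the motif in capitals and no other searched motif overlapping it.
Pf4: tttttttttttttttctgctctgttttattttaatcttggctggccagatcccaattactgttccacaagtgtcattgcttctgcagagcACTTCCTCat
Pycard: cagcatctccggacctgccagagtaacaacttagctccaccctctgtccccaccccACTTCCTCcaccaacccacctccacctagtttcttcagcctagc
Tlr1: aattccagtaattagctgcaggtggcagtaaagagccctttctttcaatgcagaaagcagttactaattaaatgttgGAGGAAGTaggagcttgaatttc
Prkcb: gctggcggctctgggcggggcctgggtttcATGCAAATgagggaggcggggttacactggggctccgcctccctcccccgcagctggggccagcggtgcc
Ccr6: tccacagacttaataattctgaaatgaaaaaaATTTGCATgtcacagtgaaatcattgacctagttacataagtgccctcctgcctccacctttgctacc
The ETS-type letters lie 10, 44 and 23 bases before the start of Pf4 (platelet factor 4, -4.68 ± 0.10), Pycard (the inflammasome adaptor, -4.45 ± 0.06, with other probe sets at -0.80 and -0.22) and Tlr1 (a receptor for bacterial lipopeptides, -4.31 ± 0.07). The octamer lies 70 and 68 bases before the start of Prkcb (a kinase of B cell receptor signalling, -5.62 ± 0.07) and Ccr6 (a chemokine receptor of B cells, -4.38 ± 0.07).

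Resident macrophages are present in both organs, and single genes of theirs passed in each direction. Of 20 Kupffer cell genes 2 passed in liver and 5 in spleen, where 7.6% and 7.72% of all genes did. The liver count is near the share of all genes, and only the spleen count is clearly above it. The lectin Clec4f, restricted to Kupffer cells, was at 9.75 to 9.85 in liver and 5.99 to 6.21 in spleen (3.70 ± 0.06), and the complement receptor Vsig4 was higher in liver by 4.34 ± 0.10. Timd4, a receptor for dying cells that is also listed for Kupffer cells, differed by -3.72 ± 0.09, higher in spleen, and the scavenger receptor Marco of marginal zone macrophages by -4.93 ± 0.11. Cd5l, secreted by macrophages of both organs, overlapped (0.01 ± 0.17). Of 19 red pulp and marginal zone genes 10 passed in spleen: Spic, which directs the red pulp fate, differed by -3.85 ± 0.08, and the haem-degrading Hmox1, at 7.83 to 8.17 in liver and 11.07 to 11.86 in spleen, by -3.38 ± 0.15. The iron exporter Slc40a1 was high in both and differed by -1.06 ± 0.09, below the 4-fold limit. General macrophage genes were spleen-sided, with Csf1r at -2.84 ± 0.07 and Cd68 at -2.78 ± 0.11.

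Endothelial and stromal genes divided between the organs. Of 21 sinusoidal endothelial genes 7 passed in liver and none in spleen, with a median of 0.69 (-0.21 as deposited), among them the hyaluronan receptor Lyve1 (3.74 ± 0.17), the lectin Clec4g (3.32 ± 0.11, and 1.42 on its other probe set) and the Wnt amplifier Rspo3 (2.85 ± 0.08, and 0.45 on its other probe set). Stab2, a scavenger receptor of sinusoids in both organs, was at 9.93 to 10.19 in liver and 11.17 to 11.81 in spleen (-1.43 ± 0.11). Of 24 stellate cell and fibroblast genes 9 passed in liver, led by the collectins Colec11 (6.23 ± 0.06) and Colec10 (4.77 ± 0.07), and 4 in spleen, among them Pdgfrb (-2.999 ± 0.104, and -0.21 on its other probe set) and Col1a2 (-2.97 ± 0.07, other probe sets -2.58 to -0.72). Under the values as deposited that list turned to the spleen, with 4 passing in liver and 9 in spleen. Of all genes, 982 passed in liver and 2702 in spleen under those values. Tlx1, required for the spleen to form, and Tcf21 differed by -2.66 ± 0.08 and -3.57 ± 0.07 (-0.69 on the other probe set of Tcf21), and 5 of 19 spleen stroma and patterning genes passed. The smooth muscle actin Acta2 differed by -3.78 ± 0.12 (other probe sets -0.37 to -0.10), and 7 of 19 smooth muscle genes passed in spleen. The follicle chemokine Cxcl13, which draws B cells, differed by -7.18 ± 0.09 and its receptor Cxcr5 by -5.21 ± 0.09. Lymphotoxin beta (Ltb) differed by -6.72 ± 0.05, while its receptor Ltbr was higher in liver by 2.49 ± 0.06.

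Granulocyte and platelet genes were higher in spleen. Neutrophil genes passed for 9 of 22 in spleen, led by the calgranulins S100a8 (-7.24 ± 0.14) and S100a9 (-5.69 ± 0.14). Granule genes of immature neutrophils were included: Ngp was at 5.29 to 5.46 in liver and 10.29 to 11.25 in spleen. Platelet genes passed for 10 of 22 in spleen, with the platelet basic protein Ppbp at -8.01 ± 0.12. The exception was clotting factor F5, which hepatocytes and platelets both make (4.50 ± 0.14). Innate sensors passed for 12 of 27 in spleen and for none in liver.

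Erythroid and proliferation genes passed in spleen and shared 1 outlying array. Of 28 erythroid genes 16 passed in spleen. The red cell anion exchanger Slc4a1 was at 6.33, 6.85, 6.49 and 6.79 in liver and 9.97, 12.54, 12.61, 12.58 and 12.35 in spleen. Spleen replicate 1 lay between the livers and the other spleens, and the difference of -5.40 ± 0.46 (adjusted p = 1.6e-07) became -5.98 without it, with other probe sets at -8.23 to -1.39. The alpha globin Hba-a1, by the 1 probe set that carried this symbol, was dim in both organs, at 4.26 to 4.47 and 4.43 to 4.61. Probe sets that name several genes were left out, so any shared between globin genes are not counted in that level. The ammonia channel Rhag was also lowest in spleen replicate 1 (-5.39 ± 0.41). Of 38 cell cycle genes 25 passed in spleen. The proliferation antigen Mki67 was at 4.93 to 5.14 in liver and 10.33, 11.90, 11.84, 12.13 and 11.88 in spleen (-6.58 ± 0.29). Over the erythroid list the mean level was 8.15 in spleen replicate 1 and 9.35 to 9.68 in the other spleens, and over the cell cycle list 8.69 and 9.23 to 9.50. Whether that array sampled other cells was not tested. The interferon-induced Rsad2 was low on the same array, 11.44 against 12.80 to 12.91.

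**Figure D3:**
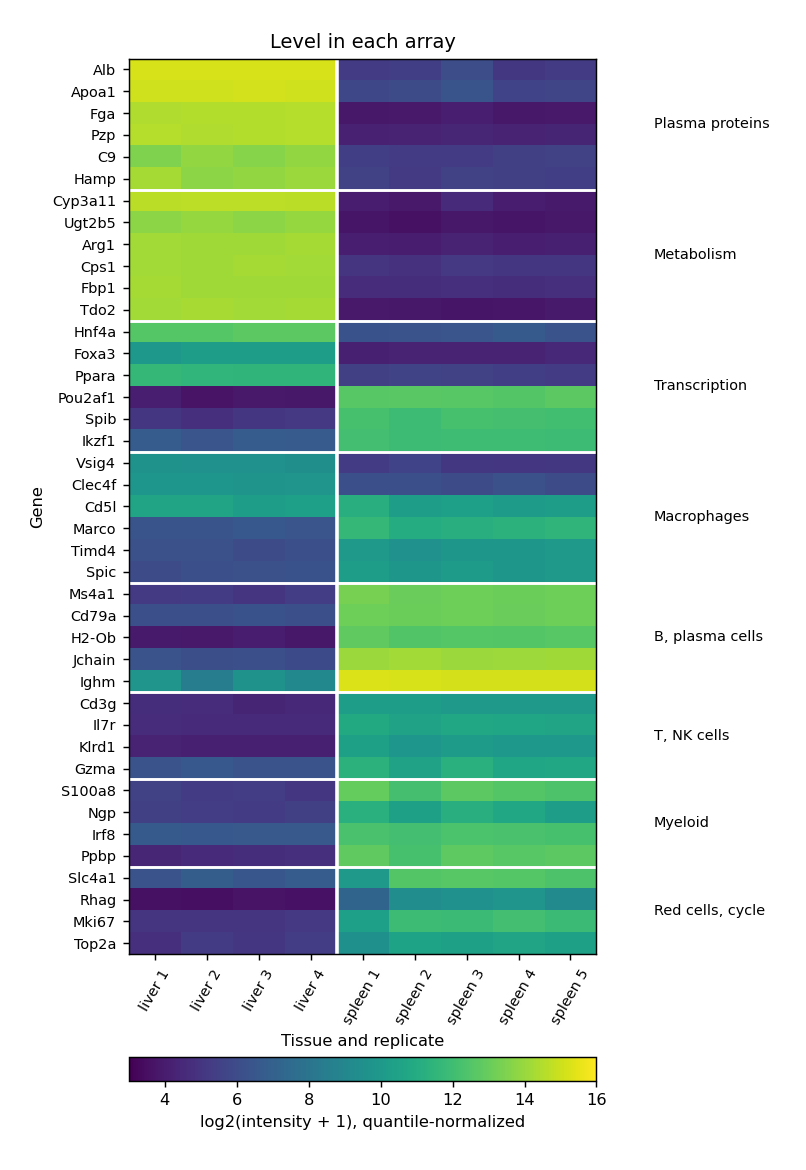
Level of named genes (rows, grouped by role) on each of the 9 arrays (columns), as colour on a log2(intensity + 1) scale from dark (low) to yellow (high). Liver and spleen columns differ for all rows but Cd5l, and spleen replicate 1 is darker than the other spleens for Slc4a1, Rhag and Mki67.

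Several paralogs of the same reaction or ligand differed in opposite directions. Of 51 isoenzymes and transporters 16 passed in liver and 10 in spleen. For glucose entry, Slc2a2 (GLUT2) was higher in liver by 8.35 ± 0.09 and Slc2a3 (GLUT3) differed by -4.89 ± 0.07 (other probe sets -4.43 to -0.70). For phosphorylation of glucose, Hk1 differed by -3.14 ± 0.06. For pyruvate kinase, Pkm differed by -3.90 ± 0.06, and Pklr was higher by 1.92 ± 0.09, under the limit, with its other probe sets at 3.49 to 3.77. Of the glycogen phosphorylases, Pygl passed in liver (4.23 ± 0.08) and Pygb in spleen (-2.11 ± 0.06). The first step of haem synthesis showed Alas1, the housekeeping form, 1.52 ± 0.19 higher in liver, under the limit, and Alas2, the erythroid form, higher in spleen (-2.26 ± 0.17). Of the transferrin receptors, Tfr2 was higher in liver by 4.36 ± 0.15 and Tfrc differed by -2.51 ± 0.26 (other probe sets -1.62 to -1.22). The iron hormone hepcidin (Hamp) was at 14.26, 13.75, 13.87 and 14.05 in liver and 5.20 to 5.52 in spleen (8.57 ± 0.10). Of 2 enzymes that both act on adenosine and are not paralogs, adenosine kinase (Adk) was higher in liver by 4.25 ± 0.08, and adenosine deaminase (Ada) differed by -1.75 ± 0.11, under the limit.

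**Figure D4:**
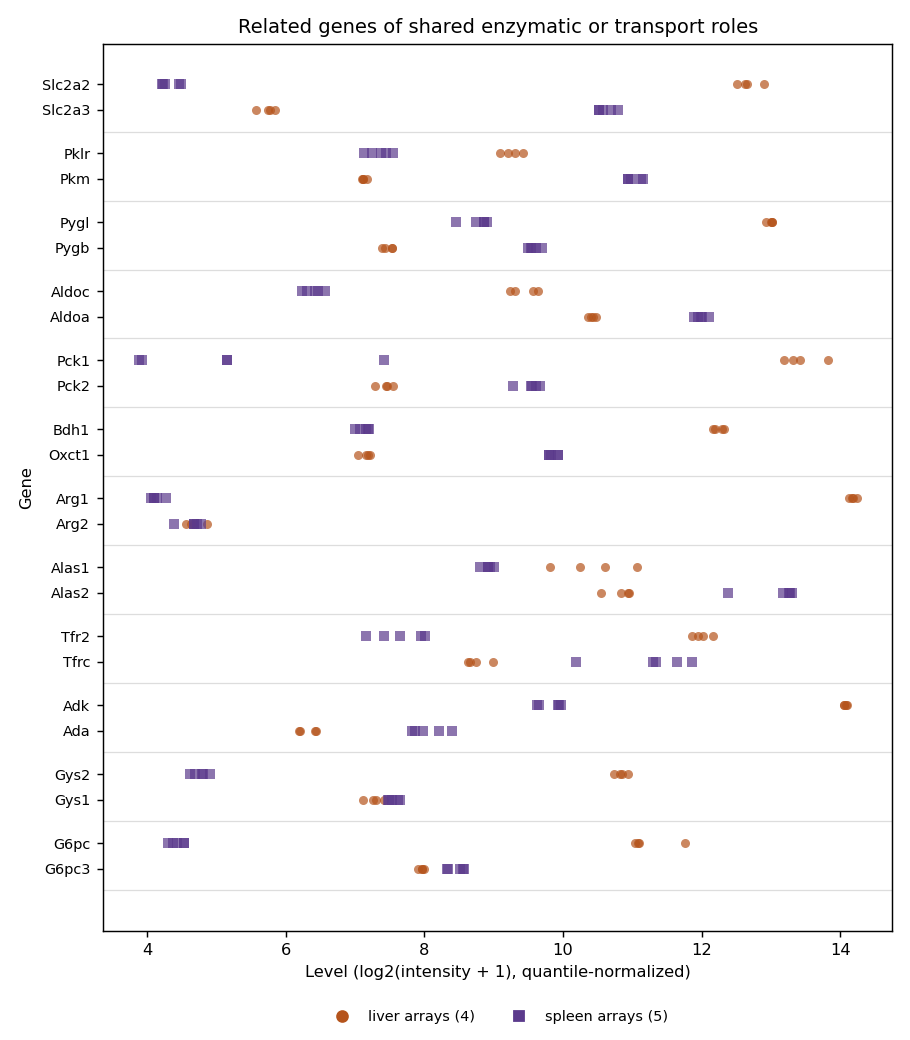
Level on each array (x axis, log2(intensity + 1)) of paralogs or paired enzymes (rows), circles for the 4 liver arrays and squares for the 5 spleen arrays, to be read along a row and not between genes. Slc2a2, Pygl, Bdh1 and Tfr2 lie higher in liver and Slc2a3, Pkm, Pygb, Oxct1 and Tfrc higher in spleen, while the organs overlap for Arg2.

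Genes of the respiratory chain, ribosome and proteasome passed the 4-fold limit at shares near or below that of all genes. Respiratory genes passed for 6.38% in liver, where 7.6% of all genes did. Ribosomal and proteasome genes passed for 3.03% and 5.71% in spleen, where 7.72% of all genes did. Of 47 respiratory chain and ATP synthase genes 45 met the adjusted p in liver and 1 in spleen (against 49.4% and 36.6% of all genes), but only 3 reached 4-fold, and the median difference was 0.90. Of 33 ribosomal protein genes 30 met the adjusted p in spleen and 1 in liver, and only Rps25 reached 4-fold (-2.75 ± 0.07); the median was -1.17. Proteasome genes had a median of 0.03. The size of these medians moved with the scaling. The median gene lay at -0.62 in the deposited values, where the respiratory median was 0.98, the ribosomal -1.18 and the proteasome median 0.10. After median centring it lay at 0.48, and the medians were 2.09, -0.08 and 1.20, so the respiratory median was positive and the ribosomal negative under each of the 3 scalings. Abca1, Vdac3, Sec61a1, Serf2 and Dstn were above the 95th percentile in both organs, with organ means within 0.01 of each other, although other probe sets of Abca1 gave 1.71 and 1.81.

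Genes of neighbouring tissues were looked at as a check on the dissection. Pancreatic acinar genes were low, at median percentiles of 29.3 in liver and 23.1 in spleen. Of these, 1 of 18 passed, Cela1 in liver (2.40 ± 0.10), a share of 5.56% against 7.6% of all genes. Skeletal muscle genes passed for 1 of 19, Ttn in spleen (-2.87 ± 0.11, other probe sets -0.91 to 0.37), a share of 5.26% against 7.72% of all genes. Both shares are near those of all genes, so the counts alone say little about the dissection. The adipocyte hormone Adipoq was at 4.01 to 4.19 in liver and at 3.95, 10.81, 4.03, 8.73 and 8.38 in spleen. Spleen replicates 2, 4 and 5 were high, and replicates 1 and 3 were at the liver level. Its difference was -3.10 ± 1.20 (limma adjusted p = 0.0282). With only spleen replicates 1 and 3, a split chosen after seeing the data, it was 0.08, which follows from the choice. The adjusted p rose above 0.05 without any 1 of spleen replicates 2, 4 and 5 or liver replicates 1, 2 and 3. The difference was -2.19 without spleen replicate 2, -3.91 without spleen replicate 1 and -3.89 without spleen replicate 3. Carbonic anhydrase 3 (Car3), abundant in both hepatocytes and fat cells, was at 14.42 to 14.49 in liver and at 5.55, 13.05, 5.83, 12.02 and 11.48 in spleen. Its difference was 4.87 ± 1.41 over all arrays and 9.03 with spleen replicates 1 and 3 only; leaving out spleen replicate 1, 2, 3 or 4 gave 3.87, 5.77, 3.95 and 5.51. The mean over the 14 adipocyte genes was 8.29, 7.43 and 7.28 in spleen replicates 2, 4 and 5 and 6.02 and 6.08 in replicates 1 and 3.

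Spread within an organ was otherwise small. Among the 9096 genes above the median level the median SD was 0.078 in liver (n = 4) and 0.095 in spleen (n = 5). A range of at least 2 across arrays was seen for 12 genes in liver and 22 in spleen, and for 16 of the latter 22 spleen replicate 1 was the farthest and the lowest. In liver the metal-binding Mt2 was at 11.97, 11.64, 10.34 and 9.55. Its difference of 2.20 ± 0.43 dropped below 4-fold without liver replicate 1 (1.80) or replicate 2 (1.91). The peptide transporter Slc15a2 varied in both organs, at 4.99, 7.48, 7.21 and 4.78 in liver replicates 1 to 4 and 6.93, 9.95, 9.88, 7.88 and 9.73 in spleen replicates 1 to 5, and its other probe sets differed by -0.40 and -0.22.

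**Figure D5:**
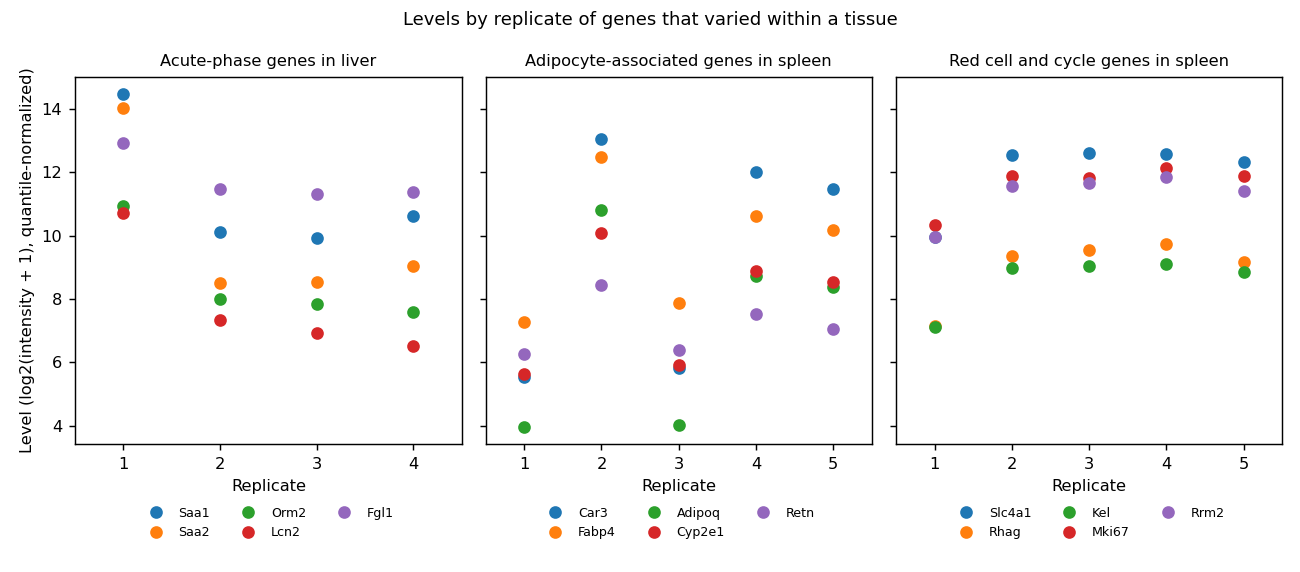
Level on each array (y axis, log2(intensity + 1)) by replicate number (x axis) for acute phase genes in liver, fat-cell genes in spleen, and red cell and cell cycle genes in spleen. Saa1 and Lcn2 are highest in liver replicate 1, Adipoq and Car3 are high in spleen replicates 2, 4 and 5, and Slc4a1 and Mki67 are lowest in spleen replicate 1.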

How the data were processed

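Whole-tissue RNA was labelled with a one-cycle biotin kit and read on Affymetrix mouse arrays. The authors deposited linear probe-set intensity values in 1 table, made with RMA per the submitters' processing notes, whose version and settings are not given in the sources used here. Array number limits the precision. The 9 arrays were quantile-normalised together as log2(value + 1), which understates differences of dim genes. The table holds 45101 probe sets, 64 of them control probes that were dropped, and of the others 34945 had 1 symbol in the platform annotation, 932 several and 9160 none, and the probe set with the highest mean stood for each of 18193 genes. Of 144 named genes that passed, 60 had other probe sets, and for 21 at least 1 of these lay under the limit, 3 with the other sign. Probe sets that name several genes or none were not named. limma 3.58.1 (lmFit, eBayes, R 4.3.3) compared liver with spleen without a block, with Benjamini-Hochberg adjustment over all genes; errors are the moderated SE. A gene passed at an adjusted p under 0.05 and a difference of at least 2 (4-fold). On simulated data drawn around each gene's mean over the 9 arrays, all genes changed by 2.5 or 4 were called at 4-fold. Of those changed by 1, 98.5% met the adjusted p (limma). No unchanged gene was called at 4-fold and 6 met the adjusted p. Few genes were changed and the joint normalisation was not rerun, so the simulation checks the fit and not the scaling.

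Genes were named by a rule: in each direction up to 15 with the largest difference, in each of the 55 lists up to 8 that passed plus up to 4 that passed against the list's direction, a fixed set of organ and sex markers, the 8 most variable per organ, the 6 most even high genes, and all isoenzymes listed. Retn, Apoe, Eif2s3y, Rgs16, C1qb, C1qc and Glul were named outside that rule, after their values were seen. The comparison, the lists and the rule were chosen with earlier results of these data known. Promoters are from RefSeq (GRCm38.p6). Alternatives were the scaling, pseudocount, filter, probe-set choice, block, weights, fold limit, each array left out, and the 4-hour arrays, plus, chosen after seeing the data, a fit with spleen replicates 1 and 3 only and a fit over all probe sets. Numbers were not taken as pairs because the labels do not state that they mark animals. Same-numbered liver and spleen arrays deviated together with r of 0.046, 0.050, 0.025 and 0.030, which does not settle whether they are pairs. Figures used matplotlib 3.10.9.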

Additional observations from a re-analysis of the deposited data

Results flagged for a closer look

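Among 324 sets of arrays (each named gene in each organ), 36 held an array that lay farther from the others than Dixon's 95% limit allows (11.1%). Chance gives about 1 set in 20, but the named genes include the 8 most variable of each organ, chosen for their spread on these arrays, so the share is not compared with that. Liver replicate 1 was the outlying array in 10 and spleen replicate 1 in 7.

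Several of these genes belong to groups described above. In liver replicate 1 the acute phase genes Saa1 (14.48), Saa2 (14.04) and Orm2 (10.95) were high, and the other livers lay at 9.94 to 10.61, 8.52 to 9.06 and 7.60 to 7.99. In liver replicate 4 the fatty acid hydroxylase Cyp4a14 was at 6.49, below 9.41 to 9.98, and the thiolase Acaa1b, also a PPARA target, at 13.74, below 14.003 to 14.05. In spleen replicate 1 the red cell genes Slc4a1 (9.97), Rhag (7.17) and Alas2 (12.39), the cycle gene Mki67 (10.33) and the interferon-induced Rsad2 (11.44) were low, while the macrophage gene Cd5l (11.13) was high against 10.11 to 10.32. G6pc was at 11.76 in liver replicate 3, against 11.04 to 11.10.

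The remaining sets were narrow, with a whole range under 0.7 on the log2 scale. In liver replicate 1 these were Colec11 (10.52), Cyp4a12a (12.61), Fabp1 (14.76), Fbp1 (14.27), Foxa3 (9.93), Hp (14.49) and Klrd1 (4.26). In liver replicate 2 they were Igkv9-120 (3.81), Ikzf1 (6.43), Iqgap1 (7.39), Pygl (12.93) and Slco1b2 (13.19). In liver replicate 3 they were Abcb11 (12.55), Acta2 (8.17), Apoa1 (15.10), Cd79a (6.29) and Pf4 (7.08). In spleen they were Ikzf1 in replicate 1 (12.10), Pf4 in replicate 2 (11.25), Cyp3a11 (4.52) and Pycard (10.41) in replicate 3, Arg2 (4.39) and Col1a2 (11.66) in replicate 4 and Slco1b2 (4.32) in replicate 5.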

How the results depend on the processing

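Of 162 named genes, 109 kept their direction and stayed on the same side of the limits under each of the 25 alternatives in which they had a value. The counts over all genes follow the limit that defines them: 3446 in liver and 3249 in spleen (6695 in all) at 2-fold, 823 and 699 (1522) at 8-fold, 2860 and 2794 (5654) with limma's treat against 2-fold, and 7887 and 7529 (15416) for ranks within an array with no fold limit. The values as deposited raised the spleen count to 2702. Leaving out 1 array at a time gave 1355 to 1399 in liver and 1383 to 1427 in spleen. The fit with the replicate block over replicates 1 to 4 gave 1377 and 1401; each liver array correlated best with the spleen array of its own number, a hint from the data and not from the design. Lists with few passing members turned, with counts given for liver and then spleen. Of 24 stellate cell genes 4 and 9 passed as deposited, where 982 and 2702 of all genes did. Under ranks, where 7887 and 7529 of all genes passed, cholangiocytes had 6 and 8 of 15 and skeletal muscle 10 and 5 of 19. Median centring passed 1807 and 1126 of all genes, with haem synthesis at 3 and 2 of 18 and proteasome at 1 and 0 of 35. Proteasome had 3 and 2 under treat, and skeletal muscle 3 and 2 at 2-fold. These counts are small beside those over all genes, so the turns say little about the lists. Genes that turned with a pass in at least 1 of the fits compared were Adipoq (0.14 at 4 hours, 0.076 with spleen replicates 1 and 3 only), Arg2 (-2.04 at 4 hours), Rgs16 (-0.74 at 4 hours), and Cyp4f18 (0.46) and Ttn (0.28) by the probe set highest in the lower organ. In 13 genes, Arg2 included, the sign changed with a pass in neither fit, as for Lcn2 (-0.69, and 1.63 at 4 hours). The cause was not tested, apart from the fold limits, which act by construction. Signal over background is not given in the table, so dim genes could not be marked as undetected.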

Other observations

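The vehicle arrays taken at 4 hours (3 liver, 4 spleen, none of them used above) gave the same organ contrast over most genes. Of the 1382 genes that passed in liver at 7 days, 1210 passed there too (87.6% of the 7-day list and 89.2% of the 1356 at 4 hours), and of the 1404 spleen genes 1217 did (86.7%, and 82.6% of 1474). No gene passed in opposite directions. These are other arrays of the same study and share its platform and its organ-wise scaling.

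Some genes differed in size between the times. The signalling regulator Rgs16, chosen after its values were seen, was 5.46 ± 0.23 higher in liver at 7 days but -0.74 ± 0.31 at 4 hours (adjusted p = 0.0544, limma), where the liver arrays were at 4.79, 5.74 and 4.202. Saa1 differed by 10.53 and Saa2 by 9.87 at 4 hours, with liver levels of Saa1 at 15.20, 14.29 and 15.34 at 4 hours, against 9.94 to 14.48 at 7 days. Slc4a1 differed by -9.13 at 4 hours. The difference between the times was not tested.

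Probe sets without a gene symbol also separated the organs. Of 9160 such probe sets 220 passed in liver (2.4%) and 658 in spleen (7.18%), with differences from -8.70 to 10.64, against 2252 (6.44%) and 2613 (7.48%) of the 34945 probe sets with 1 symbol.

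The transporter Slc15a2 was lower in the replicates numbered 1 and 4 than in those numbered 2 and 3 in both organs, and spleen replicate 5, at 9.73, had no liver counterpart. The labels do not say that a number marks an animal.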
